A study of Mus musculus with 24 samples.

Results

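The male promoter comparison covers the H3K27ac peaks of skeletal muscle fibers that were centred on gene promoters, in vehicle-treated males and in weekly prednisone–treated males 4 days after the last injection. A peak was a member if it lay on 1 of the 19 autosomes and its centre fell between 1000 bp before and 100 bp after the start of a curated RefSeq transcript in mm10. There were 9199 such peaks, 5931 in the vehicle list and 3268 in the day 4 list, of 469078 peaks in the 8 peak lists of the study. A day 4 promoter peak was called gained where no vehicle peak overlapped it by at least 1 bp, and a vehicle promoter peak was called lost where no day 4 peak overlapped it. All other members were called kept. The question was which promoters carried the mark 4 days after a prednisone dose and which carried it without prednisone.

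Both groups were C57BL/6J males, 10 weeks old when dosing began and injected i.p. every day for 4 weeks. Vehicle mice received DMSO in PBS. Weekly prednisone mice received 1 mg/kg prednisone on 1 day and the same DMSO vehicle on the 6 days that followed, with 5 prednisone injections in all. Myofibers were isolated from the left quadriceps before chromatin was prepared, and each group had 2 biological replicates and 1 input library. The study also held females and the days 6 and 8. The peak files hold 1 list for each group and no values for single replicates, so no test between vehicle and day 4 could be made from them, and the 95% Wilson intervals given here cover counting error only.

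The vehicle list rested on 31.6 M tags and the day 4 list on 7.52 M tags, 4.21 times fewer, and the vehicle list held 87199 autosomal peaks against 17339 at day 4. The largest single peak took 4.65% of all day 4 tags and 0.793% of all vehicle tags. Promoter-centred peaks were 6.80% of the autosomal vehicle peaks and 18.8% of the day 4 peaks. Their median width was 972 bp in vehicle and 718 bp at day 4, and their median fold over input was 5.06 and 9.25. Depth and treatment cannot be told apart with 1 list for each group, so a promoter without a day 4 peak is a promoter where none was detected at this depth.

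Histone H3 acetylated at lysine K27 marks active promoters and enhancers, and at a promoter it is found on the nucleosomes that flank the transcription start. Prednisone is converted to prednisolone, which binds the glucocorticoid receptor (GR), a nuclear receptor that binds DNA at palindromic elements and recruits coactivators with acetyltransferase activity. In muscle, GR is known to induce Per1, Klf15, Pdk4 and other metabolic and clock genes as well as ubiquitin ligases of the atrophy program.

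The sequences below are the 250 bases before the start of 8 promoters that stand for the 3 classes, read from the mm10 assembly with RefSeq starts. Capitals mark matches on either strand to the 11 motifs searched, which are given with their shares further on. The first 3 promoters were gained. The Ebf1 window (chr11:44617850-44618099, plus strand) held none of the motifs and had 40% GC. The Pde9a window (chr17:31385984-31386233, plus strand) had 70% GC and 6 GC boxes, and the Phf14 window (chr6:11925631-11925880, plus strand) held an NRF1 site and a GC box.

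Ebf1: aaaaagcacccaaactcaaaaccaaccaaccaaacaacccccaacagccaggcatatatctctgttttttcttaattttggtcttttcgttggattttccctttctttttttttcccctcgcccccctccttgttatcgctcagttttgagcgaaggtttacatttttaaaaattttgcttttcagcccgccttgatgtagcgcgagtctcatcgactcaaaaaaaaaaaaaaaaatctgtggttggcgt
Pde9a: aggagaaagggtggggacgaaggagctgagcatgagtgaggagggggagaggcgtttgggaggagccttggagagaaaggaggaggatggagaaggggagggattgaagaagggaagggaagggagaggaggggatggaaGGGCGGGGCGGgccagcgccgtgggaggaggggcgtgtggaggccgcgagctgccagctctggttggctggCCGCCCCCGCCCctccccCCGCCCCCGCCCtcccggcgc
Phf14: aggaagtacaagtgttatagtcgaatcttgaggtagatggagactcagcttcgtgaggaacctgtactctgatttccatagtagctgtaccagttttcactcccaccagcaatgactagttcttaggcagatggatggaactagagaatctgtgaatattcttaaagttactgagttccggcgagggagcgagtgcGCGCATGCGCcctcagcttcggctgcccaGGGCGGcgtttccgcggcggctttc

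The next 2 promoters were kept. Per1, a clock gene and GR target, had the strongest day 4 promoter peak of the GR target list, and its window (chr11:69098699-69098948, plus strand) held 3 CCAAT boxes and 1 GC box. Pafah1b1, which encodes the dynein regulator LIS1, had the highest day 4 Score of the kept promoters. Its window (chr11:74724385-74724634, minus strand) had 73.6% GC and held an NRF1 site and a GC box.

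Per1: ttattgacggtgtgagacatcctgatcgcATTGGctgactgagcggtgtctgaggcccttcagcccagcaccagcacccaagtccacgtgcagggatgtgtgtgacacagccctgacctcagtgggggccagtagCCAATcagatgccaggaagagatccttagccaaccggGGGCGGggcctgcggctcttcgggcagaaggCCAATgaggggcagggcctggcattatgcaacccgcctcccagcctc
Pafah1b1: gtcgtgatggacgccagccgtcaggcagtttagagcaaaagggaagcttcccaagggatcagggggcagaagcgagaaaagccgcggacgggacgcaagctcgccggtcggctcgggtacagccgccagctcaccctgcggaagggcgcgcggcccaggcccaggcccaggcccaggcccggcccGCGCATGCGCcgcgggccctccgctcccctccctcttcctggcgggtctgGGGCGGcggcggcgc

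The last 3 promoters were lost. Acta1 encodes skeletal alpha-actin, and its window (chr8:123894776-123895025, minus strand) held a TATA box, a CArG box, an E-box and 2 GC boxes. Pdk4, the kinase that inhibits pyruvate dehydrogenase, had 1 CCAAT box in its window (chr6:5496279-5496528, minus strand). Cox10, which encodes a heme A synthesis enzyme of cytochrome c oxidase assembly, had an ETS site, a TATA box and a GC box (chr11:64079473-64079722, minus strand), and the window also lies partly in an exon of the noncoding gene 2810001G20Rik.

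Acta1: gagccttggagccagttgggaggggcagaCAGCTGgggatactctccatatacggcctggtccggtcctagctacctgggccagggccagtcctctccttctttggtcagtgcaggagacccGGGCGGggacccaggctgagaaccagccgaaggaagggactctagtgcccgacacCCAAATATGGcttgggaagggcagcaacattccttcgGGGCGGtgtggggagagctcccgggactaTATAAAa
Pdk4: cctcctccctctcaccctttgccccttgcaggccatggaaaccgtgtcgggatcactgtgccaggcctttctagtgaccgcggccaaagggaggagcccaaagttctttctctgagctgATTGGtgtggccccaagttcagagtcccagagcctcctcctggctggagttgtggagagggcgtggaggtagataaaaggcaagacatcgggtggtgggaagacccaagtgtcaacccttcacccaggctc
Cox10: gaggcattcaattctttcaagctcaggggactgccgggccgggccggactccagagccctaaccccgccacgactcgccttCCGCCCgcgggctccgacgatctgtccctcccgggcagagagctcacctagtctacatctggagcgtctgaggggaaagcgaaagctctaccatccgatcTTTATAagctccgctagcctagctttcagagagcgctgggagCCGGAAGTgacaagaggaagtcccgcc

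Of the 3268 day 4 promoter peaks, 358 were gained (11.0%, 95% interval 9.93 to 12.1) and 2910 were kept. Of the 5931 vehicle promoter peaks, 3071 were lost (51.8%, 50.5 to 53.0) and 2860 were kept. Peaks away from promoters were shared less often in both directions, with 53.5% of the other day 4 peaks gained (52.6 to 54.3) and 92.5% of the other vehicle peaks lost (92.3 to 92.7). By autosome, the gained share ran from 5.65% on chromosome 12 to 16.0% on chromosome 6, and the lost share from 44.8% to 59.2%, so neither class came from a few chromosomes.

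The repeat with lists of equal length took the 17339 vehicle peaks with the highest findPeaks Score, the tag number at the seed of a peak, which is not scaled for depth. The vehicle peaks were then those with a Score of at least 12, and 4494 of the 7261 peaks tied at 12 were taken by normalized tag count. With equal lists, 1364 of the 3268 day 4 promoter peaks were gained (41.7%, 40.1 to 43.4) and 1096 of 2985 vehicle promoter peaks were lost (36.7%, 35.0 to 38.5). Of the 1364, 1006 did overlap a vehicle peak, but one under the Score limit, and the other 358 were the peaks gained against the full list. The day 4 list was whole in both comparisons, so all 1096 losses were by construction also losses in the full lists. The gained share was thus below the lost share in the full lists and above it in the equal lists, and its size followed the vehicle cutoff, so the list of 358 is the smallest set of gains these files give by this rule.

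**Figure D1:**
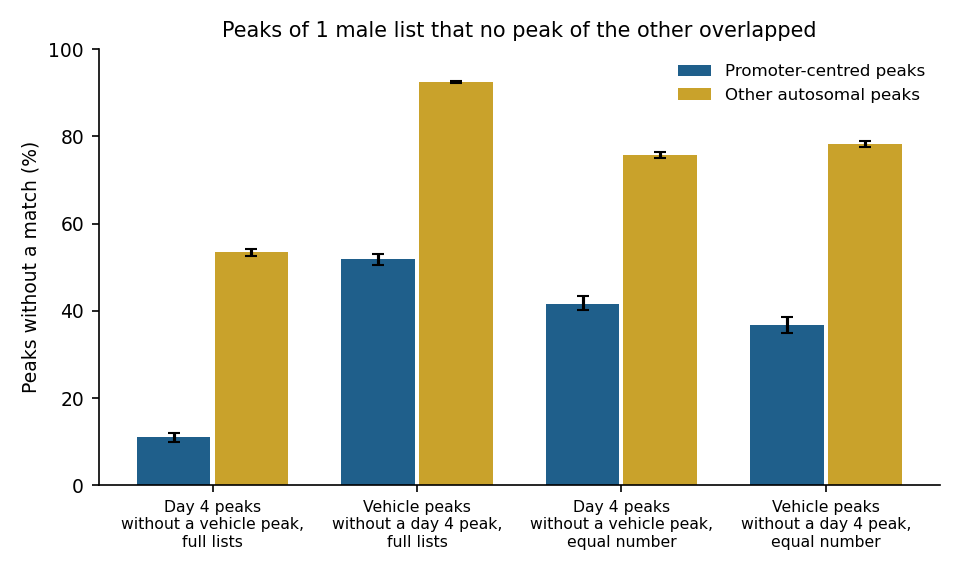
Percent of peaks (y axis) of the male day 4 or vehicle list that no peak of the other list overlapped, for peaks centred on promoters and all other autosomal peaks, with the full lists and with 17339 peaks in each. Bars are shares of 1 list and error bars are 95% Wilson intervals for counting error; promoter peaks had the lower share in all 4 pairs, and the gained promoter share was 11.0% with the full lists and 41.7% with equal lists.

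A gene with several promoters was called kept if any of its promoter peaks was kept. On this rule, 306 of the 4104 protein-coding genes with a kept or gained promoter peak were gained (7.46%), and 2627 of the 6425 with a kept or lost one were lost (40.9%). These counts share 37 genes, among them Dnpep and the proteasome ATPase gene Psmc2, that had a gained and a lost peak and no kept one. A second measure asked only whether any peak reached into the promoter window, wherever its centre lay. A vehicle peak reached the window of 10085 genes, and in 4907 of them no day 4 peak did (48.7%). A day 4 peak reached the window of 5610 genes, and in 432 of them no vehicle peak did (7.70%). The window measure is used for gene levels below, with the highest normalized tag count of a peak over the window (tags per 10 M tags of the library, a sum that grows with the width of the peak).

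Gained promoter peaks were narrow and low. Their median normalized tag count was 16 (9.31 to 94.4), which is a median of 12 tags, and kept day 4 peaks had a median of 26.6 (7.98 to 334). A width of 500 bp or less was found for 75.7% of the gained peaks, 28.9% of the kept day 4 peaks, 42.6% of the lost and 6.57% of the kept vehicle peaks. The Score was at 1 of the 2 lowest values of its list in 78.2% of the gained and 49.8% of the kept day 4 peaks. Gained peaks were centred farther from the start, with a median position of -364 bp relative to it, than kept day 4 peaks (-158 bp) and lost peaks (-209 bp). A promoter shared by 2 or more genes was found at 2.79% of the gained peaks, 6.87% of the lost and 14.0% of the kept day 4 peaks.

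A gained peak was often next to vehicle signal. A vehicle peak lay within 1 kb of 172 of the 358 gained peaks (48.0%, 42.9 to 53.2), and in 87 (24.3%, 20.1 to 29.0) a vehicle peak reached into the promoter window of the same start. A day 4 peak lay within 1 kb of only 251 of the 3071 lost peaks (8.17%, 7.26 to 9.20). The median gap to the nearest peak of the other list was 1208 bp for gained and 25771 bp for lost peaks, in lists that differ in their number of peaks. Scaled to the vehicle depth, the tags of the gained peaks correspond to 29.4 to 299 tags, with a median of 50.5.

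The 20 gained promoters with the highest Score included several regulators of transcription and chromatin. Hey1, a Notch target and repressor, and Cdk8, the kinase of the Mediator complex, had 25.3 each, and Ash2l, a subunit of histone methyltransferase complexes, had 22.6. Ino80b, of the INO80 chromatin remodeler, had 21.3, and Phf21a, of the LSD1 corepressor complex, had 20. The 20 also held Ddx51, an RNA helicase that shares its promoter with Noc4l (35.9), the ubiquitin ligase subunit Fbxo44 (23.9) and the deubiquitinase Otud6b (20). The vehicle list had no peak over the promoter window of Hey1, Cdk8, Ddx51 or Fbxo44. Even so, the nearest vehicle peak was only 194 bp from the Cdk8 peak, and 9 bp from the Ash2l peak. It was 2.49 kb away for Ddx51, 3.9 kb for Fbxo44 and 4.63 kb for Hey1.

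Ebf1, a transcription factor of B cells and of adipose and other mesenchymal cells, had the gained peak with the highest Score after Sfi1, with 31.9 normalized tags, a fold over input of 22.2 and 24 tags (chr11:44617642-44618142). This peak covered the 250 bases printed above. The nearest vehicle peak, 369 bp away, reached into the same window, and another Ebf1 promoter had a kept peak, so the gene as a whole counted as kept. Pde9a, a phosphodiesterase of cGMP, had 30.6 normalized tags (chr17:31385623-31386248), and the nearest vehicle peak was 28.7 kb away. Phf14, a chromatin protein with PHD fingers, had 26.6 (chr6:11925424-11926069), 15.7 kb from the nearest vehicle peak, though another Phf14 start carried a vehicle peak of 36.1. Pde9a thus had no vehicle peak over any of its promoters, and Ebf1 and Phf14 did.

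The single strongest gained peak, at Sfi1, a centrosome protein gene, differed from the rest. It had a Score of 36 and 94.4 normalized tags (chr11:3194280-3194780), but a fold over input of 2.15, the lowest of all gained peaks, with 33.1 input tags at the same depth. A vehicle peak lay 66 bp away, and the vehicle list held a peak of 620 over an Sfi1 promoter. The other 19 of these 20 had a fold over input of 3.93 or more, and 6 of the 20 (Sfi1, Ebf1, Ash2l, Otud6b, Dnpep and Ccdc40) had a vehicle peak in the same promoter window. The remaining members of the 20 were Smok2a, a sperm kinase gene, Nbea, Strbp, the phospholipase gene Plcb4 (35.9, fold 20.8) and the cytokine gene Tnfsf13 (34.6). Just inside the Score limit of the 20 were Dnpep, Plcb4, Tnfsf13 and Ccdc40, each with a Score of 10.

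Among the 15 kept promoters with the highest day 4 Score, Pafah1b1 had a Score of 28 and 83.8 normalized tags (63 tags), and Ndel1, which encodes a partner of LIS1 in dynein control, had a Score of 24 and 57.2. Mat2a, the S-adenosylmethionine synthase, had 51.9, the translation factor Eif5a 101, the elongin subunit Eloc 69.2 and Rab10, a GTPase of GLUT4 traffic, 54.5. Klf10 had 91.8, the actin nucleation subunit Arpc4 94.4, the calpain inhibitor Cast 49.2 and the corepressor Ncor1 74.5. The peak named by the microRNA gene Mir3960 also covered the start of Cdk9, the elongation kinase, with 132. Fam120a (46.6), Ammecr1l (38.6) and Zfp784 (33.3) completed the list with Per1.

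The strongest day 4 peaks over any promoter window were wide and were strong in vehicle as well (these genes were chosen after their values were seen). The orphan receptor gene Gpr146 had 638 in vehicle and 420 at day 4. Nfic had 612 and 368, the myogenic factor gene Mef2d 747 and 334, and Zfp36, whose protein degrades AU-rich mRNAs, 534 and 311. The immediate early gene Junb had 342 and 263. Setd1b, which encodes a histone methyltransferase, went the other way, with 78.8 in vehicle and 271 at day 4, and its day 4 peak was 8128 bp wide against 1514 bp in vehicle.

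Among kept promoters, 2004 had a peak centred on the promoter of the same gene in both lists. Their median ratio of normalized tag counts, day 4 over vehicle, was 0.667, with a median width ratio of 0.688, and the tags per base had a median ratio of 1.01 (0.34 to 3.96). The kept peaks were therefore narrower at day 4 and about as dense. Their order within a list was only loosely shared. Spearman's rho across these promoters, which are not independent replicates, was 0.14 by Score, 0.15 by fold over input and 0.47 by normalized tag count. More than 25 percentile points separated the 2 ranks by Score in 1049 promoters (52.3%, 50.2 to 54.5), and in 37.8% by normalized tag count. Scores have few distinct values at day 4, where the median of the members was 8 and the lowest 7.

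The largest differences in rank by Score were thus mostly differences between tied low values and high ones. Arpc4 was at percentile 9.76 in vehicle (Score 9) and 99.5 at day 4 (Score 19), while its normalized tag counts were 106 and 94.4. BC005537, Gm14966, Cap1, Ciao2b, Zfyve27, Cage1 and Fbxl20 followed, each with a vehicle Score of 9. Of these 8, only Zfyve27, an ER-shaping protein gene (19.6 and 37.2), and Fbxl20, an F-box protein gene (56 and 70.5), had the higher normalized tag count at day 4. In the other direction, Fbxo9, which encodes a ubiquitin ligase subunit, had a Score of 55 in vehicle and 7 at day 4, with 59.1 and 22.6 normalized tags. Ripk1, the death receptor kinase (59.1 and 45.2), St13 (89.2 and 86.5), the amino acid transporter subunit Slc3a2 (78.4 and 25.3), Gtpbp2 (99.6 and 63.8), Cwc25, U2af2 and Adnp followed, all with a day 4 Score of 7.

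Lost promoters had low vehicle signal as a group. Their median vehicle tag count was 16.8 (3.48 to 136), and that of kept vehicle promoters was 45.2 (3.48 to 534). Kept shares ran from 13.1% in the lowest decile of vehicle promoter peaks (10.7 to 16.1) to 95.1% in the highest (93.1 to 96.6), where 29 of 593 were lost. Other vehicle peaks in the same ranges of tag count were kept less often, at 2.24% in the lowest range and 79.9% in the highest. Scaled to the day 4 depth, the tags of the lost peaks give a median of 12.6 tags (2.62 to 102). For 2828 of the 3071 (92.1%, 91.1 to 93) the scaled number was at least 7 tags, the lowest Score of a day 4 promoter peak, and the same held for 98.5% of the kept. The comparison takes all tags of a peak, whereas the Score counts those at its seed only. It also scales by depth alone, although peaks other than the largest held 17.7% of vehicle tags and 5.60% of day 4 tags. The part of this difference in the lost peaks was not tested.

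**Figure D2:**
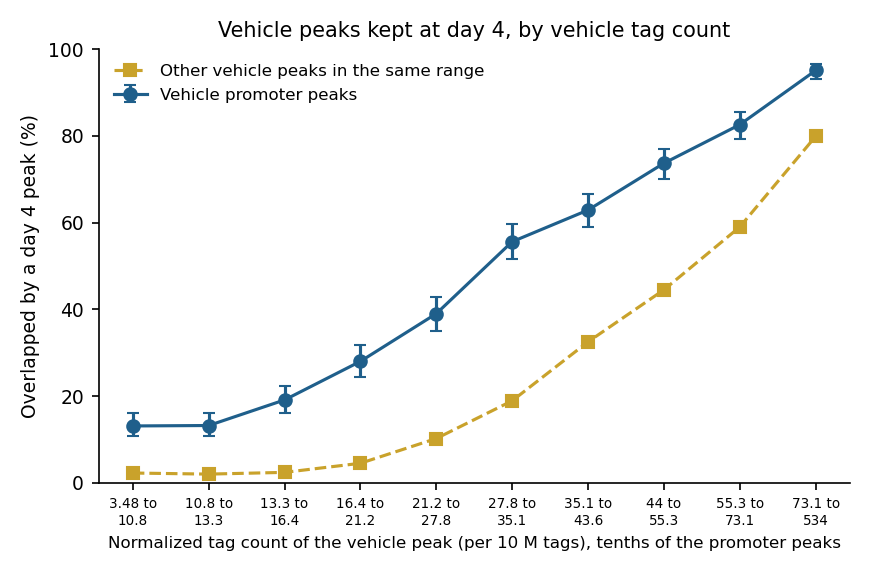
Percent of male vehicle peaks overlapped by a day 4 peak (y axis), by the normalized tag count of the vehicle peak in the 10 deciles of the promoter peaks (x axis). Circles are promoter peaks with 95% Wilson intervals and squares are the other autosomal vehicle peaks in the same ranges; promoter peaks ran from 13.1% to 95.1% kept and lay above the other peaks in each range.

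The lost promoters with the highest vehicle Score belonged to genes of varied functions. Cox10 had a Score of 45 and 63.6 normalized tags (chr11:64079276-64080043), which is 47.8 tags at the day 4 depth, and the nearest day 4 peak was 187 kb away. The promoter shared by Lrrc57 and Haus2, an augmin subunit gene, had 77.2, and Zfp426 had 62. Slc46a3, a lysosomal transporter, had 60.4, the complex I subunit Ndufa10 had 52.8 and Tsg101, of the ESCRT machinery, had 70.2. Rmnd5a and Ubxn2a had 47.1 and 43, and the deubiquitinase Usp34, with 35.4, had a day 4 peak 551 bp away. The other members were Eme1, Nudt6, Zfp330, Zscan26, Zfp866, the noncoding Lppos, Tmem218, Slc35e1, the mitotic kinesin Kif20a, Pggt1b and Cdk2ap2, with 27.5 to 66.1 normalized tags. None of the 20 had a day 4 peak in the promoter window of the same start. The last of the 20, Cdk2ap2, had a Score of 29.

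By normalized tag count, the strongest lost peak was that of Acta1 (these genes were chosen after their values were seen). It was 5097 bp wide (chr8:123892651-123897748), with 136 normalized tags and a fold over input of 4.61, which is 102 tags at the day 4 depth. No day 4 peak lay within 9.57 kb. The promoter of Btf3l4 and Txndc12 had 116, that of the splicing factor gene Hnrnpa1 and of Cbx5, a heterochromatin protein gene, 96.1, and those of Klhl28, Phyh, a peroxisomal hydroxylase gene, and Trpc2 92.7 each. Cdc26 (90.5), Serbp1 (90.1), Cyth1 (87.9) and the complex I gene Ndufa13 (83.8) followed. Another Cyth1 promoter had a day 4 peak of 61.2. Expected tags ranged from 63.0 to 102 in the 12 strongest.

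Counted by promoter window, 198 of 1392 protein-coding genes with a vehicle peak of at least 73.1, the lower bound of the highest decile, had no day 4 peak over the promoter, and 85.8% did. Among the strongest of the 198 (chosen after their values were seen) were Fem1a with 325, the phosphatase genes Ctdsp2 with 322 and Ctdsp1 with 242, Arrdc2 with 290 and Ly6e with 227. They also held the troponin genes Tnni2 at 216 and Tnnt3 at 205, glycogen synthase Gys1 at 184 and muscle creatine kinase Ckm at 176. The insulin receptor substrate Irs1 had 148. Scaled to the day 4 depth, these peaks held between 111 tags (Irs1) and 244 tags (Fem1a). For Tnnt3 and Ckm a day 4 peak did overlap the vehicle peak outside the promoter window, so their peaks counted as kept. The vehicle peaks of the other genes named here were not centred on the promoter. Their class therefore does not tell whether a day 4 peak overlapped them outside the window. In the gene lists below, a gene without a day 4 peak is one with none over the promoter window.

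The gene lists below were read beside all 20021 protein-coding genes, of which 5178 had a peak over the promoter in both lists, 4907 in vehicle only and 432 at day 4 only. Over the 5178, the median ratio of normalized tag counts, day 4 over vehicle, was 0.636, and 4042 had the lower count at day 4. Each list was read against this ratio, although the lists differ in vehicle strength. Among genes with both peaks, the median vehicle count was 47.4 for all genes and 97.7 for sarcomere genes. It was 134 for glycolysis and glycogen, 82.8 for calcium handling, 103 for myogenic regulators and 77.8 for GR targets. The ratio was not compared at equal vehicle counts, and genes without a day 4 peak do not enter it.

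GR targets were present in both lists as a group. Of 24 matched genes, 15 had a peak over the promoter in both lists, 5 in vehicle only, none at day 4 only and 4 in neither, with a median ratio of 0.694. Per1 had 359 in vehicle and 249 at day 4, Klf9, a Krüppel-like repressor, 182 and 74.5, and Cebpd 140 and 94.4. Dusp1, a MAP kinase phosphatase, had 125 and 73.2, Errfi1 44.6 and 20, and Sesn1 63.9 and 22.6. Values were close for Bcl6 (111 and 105), Sgk1, a kinase of ion transport (77.8 and 74.5), and Nfkbia, the inhibitor of NF-κB (38 and 34.6). Ddit4, an inhibitor of mTOR (35.1 and 51.9), and Gadd45a (12 and 25.3) had the higher count at day 4.

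Of the other GR targets, Klf15 (101), the cell cycle inhibitor Cdkn1a (98.7), the metallothionein Mt2 (72.7), Angptl4 (56.6) and Pdk4 (51.9) had a vehicle peak and none at day 4. Expected day 4 tags were 75.9, 74.2, 54.7, 42.6 and 39.0 in that order. Zbtb16 lost a promoter-centred peak, while another of its promoters had 106 in vehicle and 42.6 at day 4. Fkbp5, Cebpb, Tat and Lcn2 had no promoter peak in either list. By peak centre, 5 of the 14 GR targets with a vehicle promoter peak lost one (35.7%, against 40.9% of all genes). The other 9 were kept and none was gained, as against 7.46% gained among all genes with a kept or gained promoter peak. Day 6 and day 8 values differed by gene, with 51.8 and 31.5 for Pdk4, none and 54.2 for Klf15 and 38.8 and 38.7 for Cdkn1a, so these 3 promoters carried a peak in 1 or both later male lists. Angptl4 had 11.9 at day 6 and no peak at day 8, and Mt2 had no peak on either day.

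Sarcomere genes had a lower ratio than all genes, though the share with a day 4 peak was higher. Of 39 sarcomere genes, 15 had a promoter peak in both lists, 8 in vehicle only, 1 at day 4 only and 15 in neither, and 14 of the 15 with both had the lower count at day 4, with a median ratio of 0.378. Tpm2, a tropomyosin gene, had 185 and 26.6. Ldb3, a Z-disk gene, had 151 and 33.3, Actn3 97.7 and 34.6, and desmin, Des, 104 and 37.2. Tpm1 (136 and 71.8), Cryab (124 and 94.4) and Tpm3 (97.7 and 69.2) were closer. Tnnc1, the slow and cardiac troponin C gene, had 64.2 and 65.2.

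By window, 15 of the 23 sarcomere promoters with a vehicle peak had a day 4 peak (65.2%, against 51.3% of all genes), and by peak centre 4 of 14 were lost (28.6%, against 40.9%). The strong promoters went the other way. Among sarcomere promoters with at least 73.1 in vehicle, 11 of 16 had a day 4 peak (68.8%, against 85.8% of all such genes). The 5 without were Tnni2, Tnnt3, Acta1, the intermyofibrillar gene Xirp1 (131) and the M-band gene Myom2 (111). Myoz1 (58.5), Myh4 (17.4) and Myl1 (11.4) had weaker vehicle peaks and none at day 4. Tcap, the telethonin gene, was the only sarcomere promoter with a gained peak, of 12 normalized tags from 9 tags.

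Genes of glycolysis and glycogen also had a ratio below that of all genes. Of 24 genes, 11 had a promoter peak in both lists, all 11 with the lower count at day 4 (median ratio 0.503), 10 in vehicle only and 1, Tpi1, at day 4 only (25.3). Aldoa, muscle aldolase, had 330 and 226, Eno3, muscle enolase, 289 and 78.5, and Pygm, glycogen phosphorylase, 230 and 99.8. Gapdh had 147 and 61.2, Ldha 147 and 47.9, Slc2a4, the GLUT4 gene, 123 and 63.8, and the regulator Pfkfb3 134 and 16.0. Gys1, phosphoglycerate mutase Pgam2 (134), Pfkm (108) and the phosphorylase kinase subunit Phkg1 (88.9) had no day 4 peak over the window, so 8 of the 12 strong ones did (66.7%, against 85.8% of all such genes). A day 4 peak did overlap the Pfkm vehicle peak outside the window. Over the whole list, 52.4% of the promoters with a vehicle peak had a day 4 peak (51.3% of all genes), and by peak centre 1 of 10 genes was lost (40.9% of all genes). Pkm was close, with 43.3 and 41.2.

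**Figure D3:**
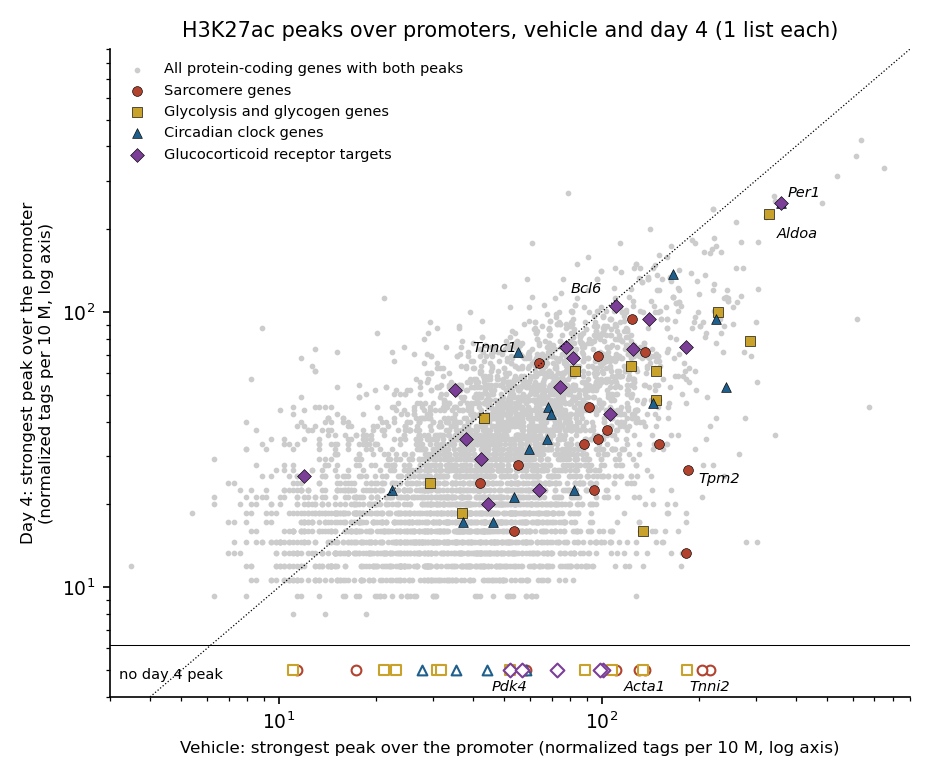
Highest normalized tag count of a peak over the promoter window in the male vehicle list (x axis) and the day 4 list (y axis), both in tags per 10 M on log axes, for all protein-coding genes with both peaks (gray) and for 4 gene lists. Open symbols in the strip at the bottom are genes with a vehicle peak and no day 4 peak, and the dotted line is equality; Per1 (359 and 249), which is in both the clock and the GR target list, lay closer to the line than Tpm2 (185 and 26.6).

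Calcium-handling genes also had a low ratio, with a median of 0.400 over the 12 of 26 genes with both peaks. Atp2a1, the calcium pump SERCA of fast fibers, had 290 and 69.2, Jph2, a junctophilin, 164 and 22.6, and the calcium sensor Stim1 88.9 and 37.2. Casq1, the calsequestrin of fast fibers (119 and 87.8), and Hrc (125 and 63.8) were closer to the background ratio, and Ryr1, the calcium release channel, had 45.9 and 62.5. Cacng1 (124), the kinase gene Camk2a (113), sarcalumenin Srl (108), Orai1 (84.8) and Jsrp1 (78.8) had no day 4 peak over the window, which left 7 of 12 strong promoters (58.3%, against 85.8% of all such genes). A day 4 peak did overlap the Orai1 vehicle peak outside the window. Over the whole calcium list, 63.2% of the promoters with a vehicle peak had a day 4 peak, against 51.3% of all genes, and by peak centre 16.7% were lost, against 40.9%.

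IGF1/PI3K genes had a median ratio of 0.837 over 17 genes with both peaks, and 7 of 25 were in vehicle only. Of the promoters with a vehicle peak, 70.8% had a day 4 peak, against 51.3% of all genes. Of the strong ones, with at least 73.1 in vehicle, 5 of 7 did (71.4%, against 85.8% of all such genes). Akt2, the insulin-signaling kinase, had 131 and 133, the integrin gene Itga5 91.7 and 99.8, and Rheb, the activator of mTOR, 67 and 63.8. The receptor gene Igf1r had 17.4 and 35.9. Tsc1 (62 and 22.6) and Tsc2 (43 and 16.0), the inhibitors of Rheb, had lower counts at day 4. Irs2 had 120 and 85.1, whereas Irs1 (148), Eif4ebp1 (77.8), Gsk3b (56.9) and Igf1 itself (15.2) had no day 4 peak.

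Atrophy genes had a median ratio of 0.749 over the 12 of 19 with both peaks. The ubiquitin ligase genes Fbxo32 (atrogin-1) and Trim63 (MuRF-1) had 136 and 38.6, and 30.4 and 16.0. Foxo1 had 101 and 95.8, Foxo3 102 and 39.9, Fbxo30 75.3 and 70.5, and the autophagy genes Sqstm1 and Map1lc3b 223 and 186, and 77.8 and 87.8. Ulk1 (93.3) and Ctsl (68.0) had no day 4 peak. By peak centre 5 atrophy genes were kept and none was gained, as against 7.46% gained among all genes with a kept or gained promoter peak.

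In the clock list, all 6 promoters with at least 73.1 in vehicle had a day 4 peak, as did 85.8% of all such genes, and the median ratio was 0.509 over 15 genes. Dbp had 242 and 53.2, Nr1d1 (REV-ERBα) 226 and 94.4, Csnk1d 144 and 46.6 and Bhlhe40 166 and 137. Arntl, which encodes BMAL1, had 59.5 and 31.9, Clock 22.5 and 22.6, and Cry1 55.0 and 71.8. Per2 (44.3) and Per3 (35.4) had no day 4 peak. The part of the hour of harvest in the values of clock genes was not tested.

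All 11 strong promoters of myogenic regulators had a day 4 peak (85.8% of all such genes did), with a median ratio of 0.595, and by peak centre 8 of 20 were lost (40.0%, against 40.9% of all genes). Mef2d led the list, Six4 had 80.3 and 73.2, Myod1 59.5 and 71.8, and Mef2a 93.9 and 78.5, while Srf had 155 and 14.6 and Nfix 138 and 26.6. Myog (45.2), Myf6 (50.6) and Mef2c (26.6) had no day 4 peak. Lipid metabolism genes had a ratio of 0.642 over 19 genes, close to all genes. Hormone-sensitive lipase Lipe had 226 and 77.1, Pnpla7 123 and 49.2, Cpt1b 81.9 and 17.3, Ppard 11.1 and 31.9 and Cpt2 11.1 and 26.6, and Ucp3 (103) had no day 4 peak.

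The lists for oxidative phosphorylation (ratio 0.604, 21 of 31 with both peaks), cytosolic ribosomal proteins (0.660, 39 of 59) and the proteasome (0.646, 25 of 35) had ratios near that of all genes. Cox7a1, Rpl11, Rpl27 and Rpl38 had a peak over the window at day 4 only, with 13.3 to 22.6.

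**Figure D4:**
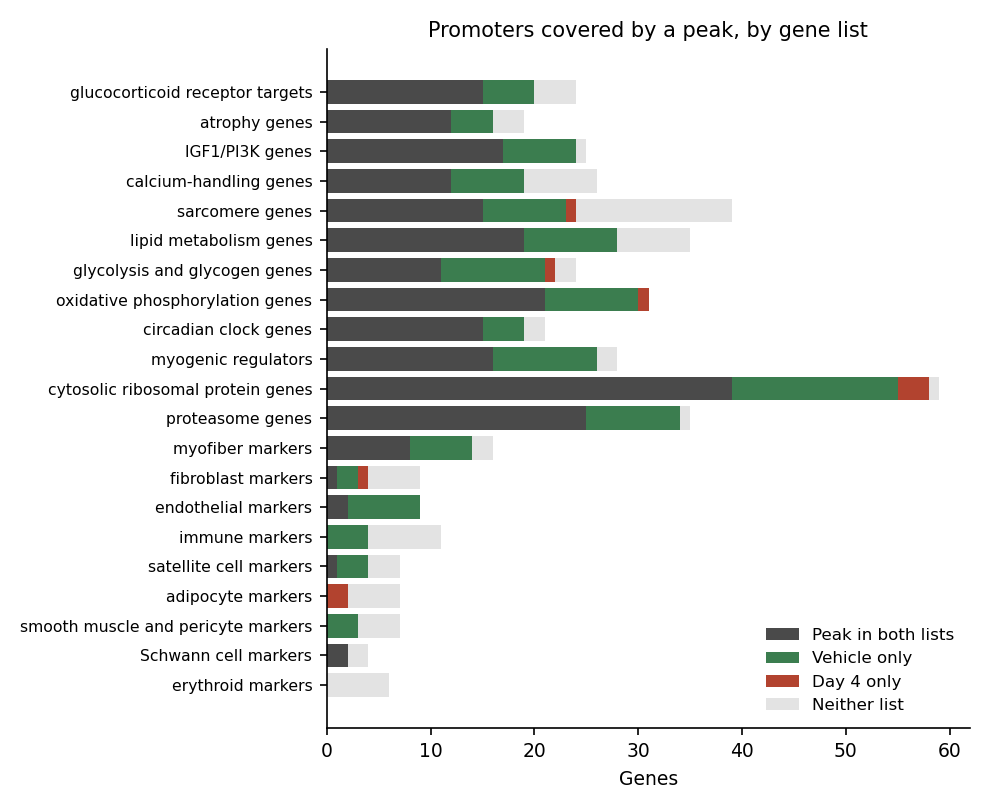
Number of genes in each list (x axis) with a peak over the promoter window in both male lists, in vehicle only, at day 4 only and in neither. Day 4 only held 1 gene each of the sarcomere, glycolysis and glycogen, oxidative phosphorylation and fibroblast lists. It also held 3 ribosomal protein genes and 2 of the 7 adipocyte markers. The adipocyte markers had no other peaks, and endothelial markers were mostly vehicle only.

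Genes studied for GR binding in this muscle had these promoter levels. Akt1 had 31.6 in vehicle and 27.9 at day 4, Pik3ca 36.7 and 12, Pik3c2a 58.8 and 49.2, and the fatty acid transporter Slc27a1 31.6 and 35.9. Esr1, the estrogen receptor gene, had 10.4 and 13.3 at different starts of the gene. Cidea, Cidec, Cacna1h and Tnnt1 had no promoter peak in either list.

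Markers of other cell types differed between the lists, where 51.3% of all genes with a vehicle peak over the promoter had one at day 4. Promoters of all 9 endothelial markers had a vehicle peak (18.7 to 107) and 2 had one at day 4, Egfl7 (107 and 13.3) and Esam (78.1 and 12). Of 11 immune markers 4 had a vehicle peak, Cd3e, Cd68, C1qb and Laptm5 (10.1 to 14.5), and none had one at day 4, while the defining Ptprc had none in either list. These 4 counts lie in the 3 lowest deciles of vehicle promoter peaks (3.48 to 16.4), where only 13.1% to 19.1% were kept. The 7 smooth muscle and pericyte markers had 3 in vehicle (Myh11, Tagln and Pdgfrb, 34.2 to 67) and none at day 4, and the satellite cell list 4 and 1 of 7, with no peak at Pax7 in either. Adipocyte markers went the other way, with gained peaks at Pparg (23.9, 18 tags) and Lep (16.0, 12 tags) and none in vehicle, but Adipoq, Plin1, Cfd, Retn and Fabp4 had none in either list. Of 9 fibroblast markers, Pdgfra had a gained peak (20), Col1a1 (38.6) and Gsn (20.2) had a peak in vehicle only, Cd34 had 24 and 12, and Dcn, Col1a2, Col3a1, Lum and Dpt had none in either list. Their part in the gained and lost promoters was not tested.

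The label of the sample was checked on 16 myofiber markers. Of these, 14 had a promoter peak in vehicle and 8 at day 4 (57.1%, against 51.3% of all genes with a vehicle peak). Of the strong ones, with at least 73.1 in vehicle, 5 of 9 had a day 4 peak (55.6%, against 85.8% of all such genes). The median ratio of the 8 was 0.394. Ckm, Acta1, Tnni2 and Tnnt3 were the strong ones without a day 4 peak over the window. Myh1 and Ttn had none in either list. In the later male lists 12 (day 6) and 13 (day 8) of the 16 had a peak, with 31982 and 20355 autosomal peaks, so the 8 at day 4 was the lowest number in the male lists. Sarcomere promoters followed the same course, with 23 in vehicle, 16 at day 4 and 22 at days 6 and 8. Those of glycolysis and glycogen had 21, 12, 18 and 21. The course was not particular to these lists. Calcium-handling genes had 19, 12, 20 and 19, oxidative phosphorylation genes 30, 22, 27 and 28, and proteasome genes 34, 25, 27 and 28. Ribosomal protein genes, with 55, 42, 39 and 41, were lowest at day 6. The day 4 list was also the shortest male list, with 17339 autosomal peaks.

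The gained and lost promoters were then looked up in the 6 other lists of the study. In the later male lists, 71 of the 358 gained peaks (19.8%, 16.0 to 24.3) were overlapped at day 6 and 82 (22.9%, 18.9 to 27.5) at day 8, 35 in both and 240 in neither. Of the kept day 4 peaks 71.6% and 79.3% were overlapped on these days, and of the lost peaks 27.5% and 29.2%. The gained share at day 6 and day 8 was therefore lower than the kept share and also lower than that of vehicle peaks absent at day 4. The Pde9a peak was in neither later male list, whereas Cdk8 had 16.2 and 20 and Hey1 6.53 and 6.55.

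The female vehicle list, with 37614 autosomal peaks, overlapped 17.3% of the gained peaks. Female weekly prednisone lists overlapped 55.9% (day 4, 66251 peaks), 82.7% (day 6, 121551 peaks) and 77.1% (day 8, 80538 peaks). The lost peaks had shares of 22.7%, 61.6%, 82.6% and 73.8% in this order, and the kept day 4 peaks 64.5%, 97.9%, 99.7% and 99.7%, so the order of the shares of gained and of lost peaks was that of the length of the female lists. All 3 female weekly prednisone lists held 191 of the 358 gained peaks (53.4%), and 136 of them had no female vehicle peak. In 48 of the 358 (13.4%, 10.3 to 17.3) none of the 6 other lists held a peak. Pde9a had no female vehicle peak and normalized tag counts of 16.1, 136 and 67.7 in the 3 female prednisone lists, by day, while the Lep promoter had a peak in the male day 4 list alone.

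**Figure D5:**
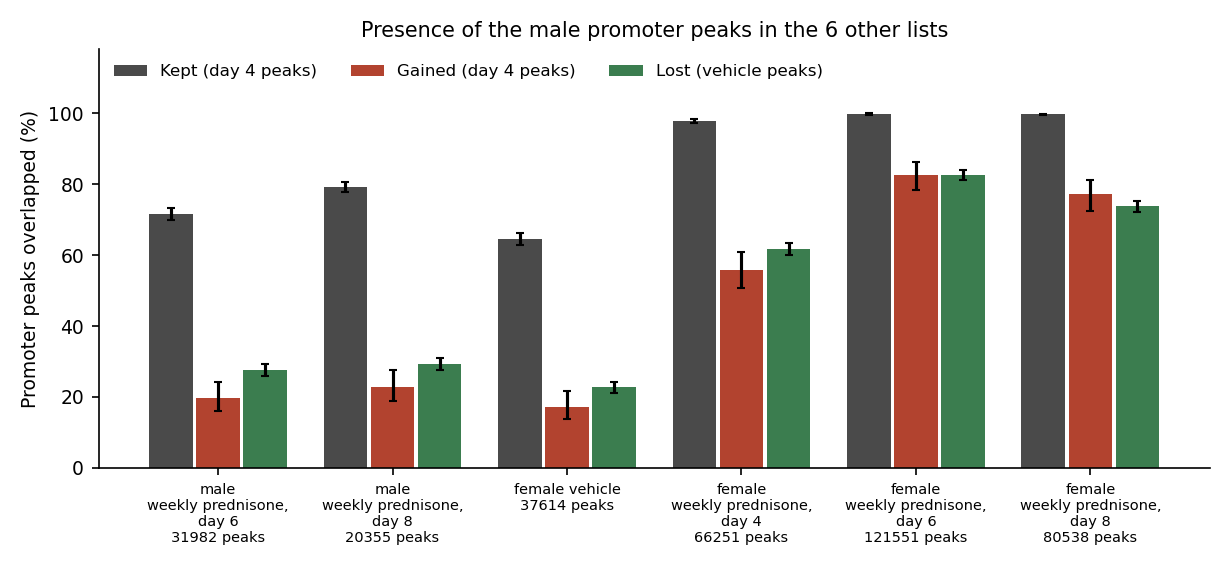
Percent of the male promoter peaks (y axis) overlapped by a peak of each of the 6 other lists (x axis, with the number of autosomal peaks in each list), for kept day 4 peaks, gained day 4 peaks and lost vehicle peaks. Error bars are 95% Wilson intervals for counting error; gained peaks lay at 17.3% to 22.9% in the first 3 lists and at 55.9% to 82.7% in the female weekly prednisone lists, where the lost peaks lay at 61.6% to 82.6%.

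Promoter sequence differed most between kept promoters and the rest. A start was called CpG-rich where the 300 bases from 250 before to 50 after it had at least 50% GC and at least 0.6 of the CpG dinucleotides that its bases predict. CpG-rich starts were 57.3% of the gained (52.1 to 62.3), 80.6% of the kept day 4 (79.1 to 82) and 54.2% of the lost promoters (52.4 to 55.9), and 42.1% of all 30179 distinct starts. The median ratio of observed to predicted CpG was 0.697, 0.835, 0.672 and 0.523 in this order, and median GC was 61.7%, 64.0%, 59.0% and 55.7%. With equal lists the CpG-rich shares were 71.6% of the gained, 82.7% of the kept and 66.8% of the lost. Most gained peaks of the equal lists were kept in the full lists. Gained and lost promoters thus had overlapping intervals in the full lists, with kept promoters above both. Of the printed examples, Pafah1b1 had 29 CpG in its 250 bases and Pdk4 had 6.

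Motifs were counted as exact matches on either strand in the same 300 bases, with matches of different motifs allowed to overlap. The GR palindrome ACANNNTGT was found at 3.91% of the gained (2.34 to 6.46), 3.09% of the kept, 4.36% of the lost and 6.06% of all starts, and in the 1100 bp of the promoter window at 23.2%, 17.5%, 22.3% and 25.1%. The share at gained promoters was thus not above that of all starts, in a window that leaves out more distant elements. The ETS site CCGGAAGT was at 3.91% of the gained (2.34 to 6.46), 11.0% of the kept (9.91 to 12.2), 6.32% of the lost and 4.61% of all starts. With equal lists these shares were 9.75% of the gained, 10.6% of the kept and 10.4% of the lost. Of the 1364 gained peaks there, 1006 overlapped a vehicle peak under the Score limit and were kept in the full lists. The equal lists therefore cannot decide whether the 358 gained peaks differ from the kept ones. The GC box GGGCGG was at 60.3%, 70.3%, 53.3% and 43.7%, and the NRF1 site GCGCATGCG at 2.23%, 4.26%, 2.61% and 1.99%.

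The cAMP element TGACGTCA was at 1.96%, 4.16%, 2.74% and 2.21% of the gained, kept, lost and all starts, and the YY1 site AAGATGGCG at 0.279%, 4.30%, 1.82% and 1.67%. The TATA box TATAAA was at 4.75% of the gained, 4.85% of the kept, 7.82% of the lost and 12.3% of all starts, and CCAAT at 31.8%, 34.2%, 37.6% and 37.0%. The E-box CAGCTG, which myogenic factors bind, was at 17.3%, 13.7%, 17.3% and 16.1%. The MEF2 site was at 0.559%, 0.481%, 0.554% and 0.504%, and the CArG box of SRF, as in the Acta1 promoter printed above, at 0.279%, 1.62%, 0.912% and 1.39%. With equal lists, the gained shares were higher than in the full lists for the cAMP element (3.74%, kept 4.04%), the YY1 site (3.15%, kept 4.36%), the NRF1 site (3.52%, kept 4.41%) and the CArG box (1.39%, kept 1.52%). The equal-list gains again include the 1006 peaks that were kept in the full lists. In the full lists the YY1 and CArG shares of gained promoters rest on 1 promoter each. A match is a description of these letters and not evidence of binding.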

How the data were processed

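H3K27ac ChIP-Seq was made on quadriceps myofibers of vehicle and weekly prednisone–treated mice, with 2 biological replicates per group. Reads were trimmed with homerTools and aligned to mm10 with Bowtie2 2.2.6, and peaks were called with HOMER findPeaks in histone style against the input, with a minimum fold of 2. How the 2 libraries entered 1 list was not stated. The authors deposited for each peak a normalized tag count (a signal per 10 M tags), a findPeaks Score not scaled for depth and, in the lists used here, a fold over input. For day 4 they deposited whole tag counts, and for both male lists the input tags.

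From these, peaks centred 1000 bp before to 100 bp after 30219 gene starts of 43783 curated RefSeq transcripts (GRCm38.p6) on 19 autosomes were compared by 1 bp overlap, and again with equal numbers of peaks by Score. Library depths (31.6 and 7.52 M tags) were recovered from the tag columns. Overlap code was tested on simulated data and gave the same covered bases as bedtools 2.31.1 for 104538 of 104538 real peaks. Wilson intervals came from scipy 1.17.1 (Python 3.11.15, pandas 2.3.3, numpy 2.4.6), and sequences were read from the GRCm38.p6 genome. With 1 list per group there was no test, and intervals cover counting error only.

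Named genes were the 20 gained and 20 lost peaks with the highest Score, the 15 kept ones, the 10 highest of each class called in both the full and the equal lists, the 8 largest rank shifts each way, all genes of fixed lists and genes the study examined by ChIP. The members and lists were chosen with earlier results of these data known. Alternatives concerned the overlap, promoter definition, fold limit, equal numbers and depth. Sex chromosomes were not analysed here, and some genes that the rule names are not reported here.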

Additional observations from a re-analysis of the deposited data

Results flagged for a closer look

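The number of promoter peaks differed in opposite directions in the sexes. Males had 5931 in vehicle and 3268 at day 4, a ratio of 0.551, and females had 3347 and 5563, a ratio of 1.66. The difference between the sexes was not tested, since each number comes from 1 list. The number of autosomal peaks differed in the same directions, with 87199 and 17339 in males and 37614 and 66251 in females.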

How the results depend on the processing

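Of 48 values under alternatives, 19 stayed within the limits set for them and 29 moved. These labels do not record a change of order between classes. The gained share was below the lost share in the full lists (11.0% and 51.8%). It was above it with equal numbers by Score (41.7% and 36.7%). With equal numbers of peaks by Score, 1364 peaks and 1289 genes were gained and 1096 peaks and 1041 genes were lost. With equal numbers by normalized tag count, an alternative chosen after seeing the data, these were 801, 724, 1054 and 1013, and with ties at the Score limit broken by position, also chosen after, 1441 peaks were gained and 1096 lost. With at least 50% of a peak covered, 587 peaks and 495 genes were gained, and with peaks within 1 kb counted as shared, 186 and 157. With a fold over input of at least 4 in both lists, 826 peaks and 776 genes were gained and 1907 peaks and 1701 genes were lost. With any overlap of the promoter window, 552 peaks were gained, and 5213 peaks and 4407 genes were lost. The causes were not tested, apart from the fewer vehicle peaks that equal numbers and the fold limit leave by construction. By normalized tag count, 37.8% of kept promoters moved over 25 percentile points, and 85% of lost promoters reached the median day 4 Score in scaled tags. CpG-rich shares of gained, kept and lost promoters were 34.6%, 60.8% and 29.6% over 1100 bp and 71.6%, 82.7% and 66.8% with equal numbers. No paired analysis was possible because the files give 1 list per group and no values per library, and for the same reason no replicate could be left out. The day 4 depth of 7.52 M tags limits what a missing peak can show.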
